A study of Mus musculus with 12 samples.

Results

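The genes of the HoxB cluster were followed across 12 arrays of mouse embryonic stem (ES) cells, all from 1 clone of the D3 line. The rule names 10 genes, Hoxb1 to Hoxb9 and Hoxb13. Of these, 9 had a probe set that the platform annotation gives to that gene alone, each of them 1 probe set, out of 19938 genes measured in this way. Hoxb8 had none, because the probe set that lists it also lists Hoxb7, and it was given no value. There are 4 groups of 3 samples, labelled as biological replicates. The ATRA group is embryoid bodies (EBs) exposed for 12 h to all-trans retinoic acid (5 micromolar per the labels), the form of vitamin A that acts on genes. The DMSO group is EBs exposed for 12 h to the solvent. The EB group is untreated EBs of day 4, made by aggregating the cells without the self-renewal factor LIF. The ES group is undifferentiated cells of day 0. It is not clear from the labels if the 12 h of exposure came on top of the 4 days or formed their end, and whether feeder cells were used is not given in the sources used here.

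Hox genes encode homeodomain transcription factors that give cells along the head-to-tail axis their positional identity. Within a cluster the genes at the 3′ end, Hoxb1 first, act furthest forward in the embryo and are switched on earliest, and the genes towards Hoxb13 act progressively further back. Retinoic acid binds heterodimers of its receptors (RAR) and the retinoid X receptors (RXR), which sit on direct repeats of a short half-site in DNA, and several such elements near the 3′ HoxB genes are known to drive them in the hindbrain and spinal cord.

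The promoter sequences of Hoxb1 and Hoxb4, which rose with ATRA, are shown because they let the reader look for such elements next to the start of the gene. Both are the 250 bases before the annotated start, 5′ to 3′, on the plus strand of mouse chromosome 11 in RefSeq's GRCm38.p6, Hoxb1 at chr11:96365508-96365757 and Hoxb4 at chr11:96318017-96318266. Capitals mark the match to TGATNNAT, a sequence bound by Pbx and Hox proteins together, in Hoxb1, and the match to a retinoid half-site in Hoxb4.
Hoxb1: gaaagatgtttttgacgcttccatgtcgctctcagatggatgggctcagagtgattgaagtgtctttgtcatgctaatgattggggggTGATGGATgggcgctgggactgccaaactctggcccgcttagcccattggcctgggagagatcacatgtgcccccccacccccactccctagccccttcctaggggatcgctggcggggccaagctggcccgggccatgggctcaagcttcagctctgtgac
Hoxb4: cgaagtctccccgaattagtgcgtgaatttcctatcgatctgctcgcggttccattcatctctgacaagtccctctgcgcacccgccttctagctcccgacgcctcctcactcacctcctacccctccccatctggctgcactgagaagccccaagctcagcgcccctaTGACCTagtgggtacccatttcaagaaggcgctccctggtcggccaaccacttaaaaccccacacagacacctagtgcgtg

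Both strands were searched for the retinoid half-site AGGTCA, for its variants spelled GGGTCA, for those spelled AGTTCA or, with both changes, GGTTCA, and for any pair of them as a direct repeat with 1, 2 or 5 bases between. Neither window held a direct repeat. Over all 32851 promoter windows of the same length in that table, 0.164% held a repeat spaced by 1 base, 0.174% by 2 and 0.0883% by 5. A single half-site stood in the Hoxb4 window on the minus strand, 81 to 76 bases before the start, and 38.6% of all windows held one. The TGATNNAT match in the Hoxb1 window lay 162 to 155 bases before the start, and 7.68% of all windows held this motif. Hoxb1 is known to keep itself active in the hindbrain through Pbx and Hox sites upstream of the gene. CCAAT, the motif of NF-Y, stood at 2 places in the Hoxb1 window and at none in the Hoxb4 window, against 33.8% of all windows with at least 1. CACGTG, the E-box of the USF factors, was in neither, against 6.02%. Of the 10 HoxB genes, 3 were listed in the promoter table, and the third, Hoxb8, also held TGATNNAT once and no direct repeat.

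The arrays were comparable in scale, with medians of the log2 values between 7.76 and 7.86. As a check of the labels, Cyp26a1 and Dhrs3, which act to lower retinoic acid, rose with ATRA over DMSO by 1.76 ± 0.09 and 2.58 ± 0.05, and Rarb, a receptor gene switched on by retinoic acid itself, by 1.68 ± 0.09 (log2 difference ± SE from limma, 3 arrays a group, adjusted p = 9.07e-08, 2.53e-11 and 1.21e-07). Cyp26a1 was also higher with DMSO than in untreated EBs, by 0.75 ± 0.09 (limma, adjusted p = 0.0093). Pou5f1 and Nanog, which define the undifferentiated state, did not pass the test in this comparison (differences of 0.00 and -0.01). Changes below are log2 differences ± SE from one limma fit to the 12 arrays, with p adjusted over 19938 genes by Benjamini-Hochberg and a threshold of 0.05. A difference of 1 is a doubling. Since each value comes from a whole culture, more cells that transcribe a gene and more RNA per cell cannot be told apart.

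ATRA against DMSO asked how the cluster responded to retinoic acid apart from the solvent. Hoxb1 to Hoxb5 and Hoxb13 rose by 0.74 to 1.71, Hoxb9 rose by 0.26, and Hoxb6 and Hoxb7 stood higher by 0.24 and 0.21 without passing the test. In all, 7 of 9 genes were called higher and 0 lower, where 6.26% of all genes were called higher and 13.3% in either direction. Those shares are the background against which the count is read. All 9 had values in the 3 ATRA arrays that lay above the 3 DMSO arrays, as did 19.6% of all genes. The median change of the 9 was 0.76, and that of all genes 0.01.

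**Figure D1:**
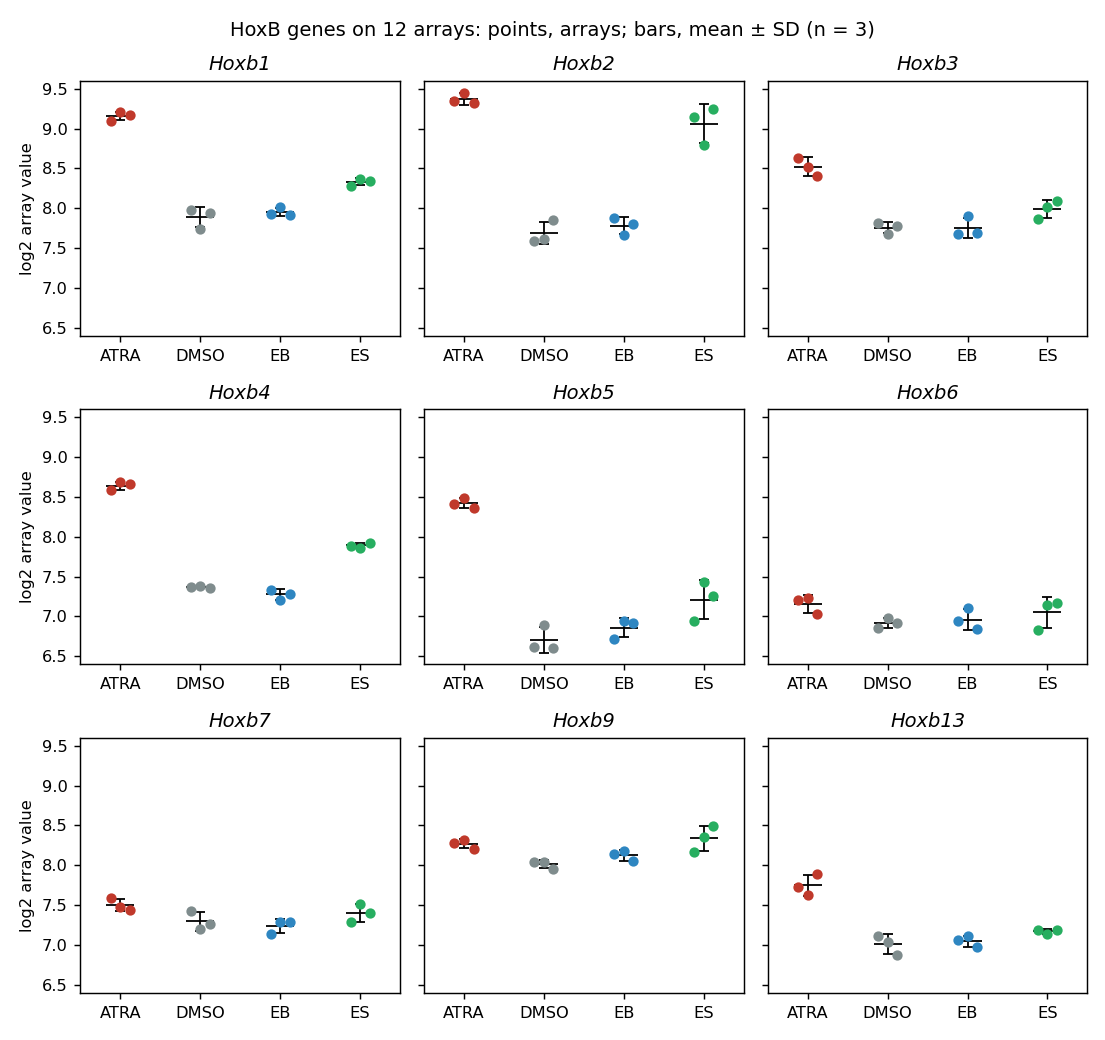
Log2 values of the 9 measured HoxB genes on each array (points), with mean ± SD of 3 arrays (bars), for the ATRA, DMSO, EB and ES groups from left to right. Hoxb1 to Hoxb5 and Hoxb13 have their highest values in the ATRA group, while the groups lie close together for Hoxb6, Hoxb7 and Hoxb9.

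Hoxb1, the selector of rhombomere 4 of the hindbrain, had values of 9.10, 9.21 and 9.17 in the ATRA arrays, against 7.98, 7.74 and 7.94 in the DMSO arrays. It rose by 1.27 ± 0.06, or 2.42-fold (limma, adjusted p = 7.78e-08). Hoxb2, a hindbrain gene as well, was at 9.35, 9.45 and 9.32 with ATRA, against 7.59, 7.62 and 7.85 with DMSO. The groups were far apart, and the rise of 1.68 ± 0.11 (3.21-fold, limma, adjusted p = 7.95e-07) was the 9th largest of all 19938 genes. Hoxb3, a gene of the caudal hindbrain, was at 8.64, 8.52 and 8.40 with ATRA, against 7.82, 7.68 and 7.78 with DMSO. Its rise of 0.76 ± 0.08 (1.70-fold, limma, adjusted p = 5.26e-05) was the smallest among Hoxb1 to Hoxb5.

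Hoxb4, whose expression begins further back in the hindbrain and which is known for expanding blood stem cells, was at 8.58, 8.68 and 8.66 with ATRA, against 7.37, 7.38 and 7.36 with DMSO. The DMSO arrays agreed to an SD of 0.01, and the rise was 1.27 ± 0.05 (2.42-fold, limma, adjusted p = 9.60e-09). Hoxb5, a gene of the neck and shoulder level and of the crest cells that form the gut's nerves, was at 8.41, 8.48 and 8.36 with ATRA, against 6.61, 6.89 and 6.61 with DMSO. It changed most of the 9, by 1.71 ± 0.11 (3.28-fold, limma, adjusted p = 1.03e-06), the 8th largest rise of all genes. Its 95% confidence interval of 1.47 to 1.96 overlaps that of Hoxb2, 1.45 to 1.92. The difference between the changes of Hoxb5 and Hoxb2 was not tested, so these genes are not ranked.

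The trunk genes moved little. Hoxb6 was at 7.21, 7.23 and 7.03 with ATRA, against 6.86, 6.98 and 6.92 with DMSO, a difference of 0.24 ± 0.09 (limma, adjusted p = 0.133). Hoxb7 was at 7.59, 7.47 and 7.44 with ATRA, against 7.42, 7.20 and 7.26 with DMSO, a difference of 0.21 ± 0.08 (limma, adjusted p = 0.0987). Their ATRA arrays stood only just above the DMSO arrays. Hoxb9, a thoracic gene, was at 8.28, 8.32 and 8.21 with ATRA, against 8.04, 8.04 and 7.96 with DMSO. It rose by 0.26 ± 0.07 (limma, adjusted p = 0.0351), but the call ended without any 1 of the 3 ATRA or the 3 DMSO arrays (adjusted p from 0.0533 to 0.127) and in the fit to all probe sets (0.0731). Hoxb6 was called in limma without ES replicate 1 (adjusted p = 0.0475), with array weights (0.0445) and with only the 2 groups compared (0.0312). Hoxb7 was called without DMSO replicate 1 (0.0496) and with array weights (0.0429).

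Hoxb13, which stands apart from the rest at the 5′ end and is known from the prostate and the tail, was at 7.73, 7.63 and 7.89 with ATRA, against 7.11, 7.04 and 6.88 with DMSO. It rose by 0.74 ± 0.07 (1.67-fold, limma, adjusted p = 2.98e-05), close to Hoxb3 in size. The change therefore did not decline steadily along the cluster. It was large from Hoxb1 to Hoxb5, with Hoxb3 lower, small for Hoxb6, Hoxb7 and Hoxb9, and larger again at Hoxb13, with Hoxb8 not measured on its own.

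The difference between neighbours was also taken within each array and compared between ATRA and DMSO with an exact two-sided permutation test, which with 3 against 3 arrays cannot go below p = 0.1. The step from Hoxb5 to Hoxb6 was the widest of the 8 pairs of adjacent measured genes: Hoxb5 rose by 1.48 more than Hoxb6 (exact p = 0.1, adjusted over the 8 pairs 0.133). Hoxb2 rose by 0.92 more than Hoxb3, and Hoxb9 rose by 0.48 less than Hoxb13, with the same p. Hoxb1 against Hoxb2, Hoxb3 against Hoxb4 and Hoxb4 against Hoxb5 differed by -0.41, -0.51 and -0.44, also with that p. As it is the lowest p possible, the test cannot rank these steps. Hoxb6 against Hoxb7 and Hoxb7 against Hoxb9 differed by 0.03 and -0.05, with overlapping arrays (exact p = 1 and 0.6).

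**Figure D2:**
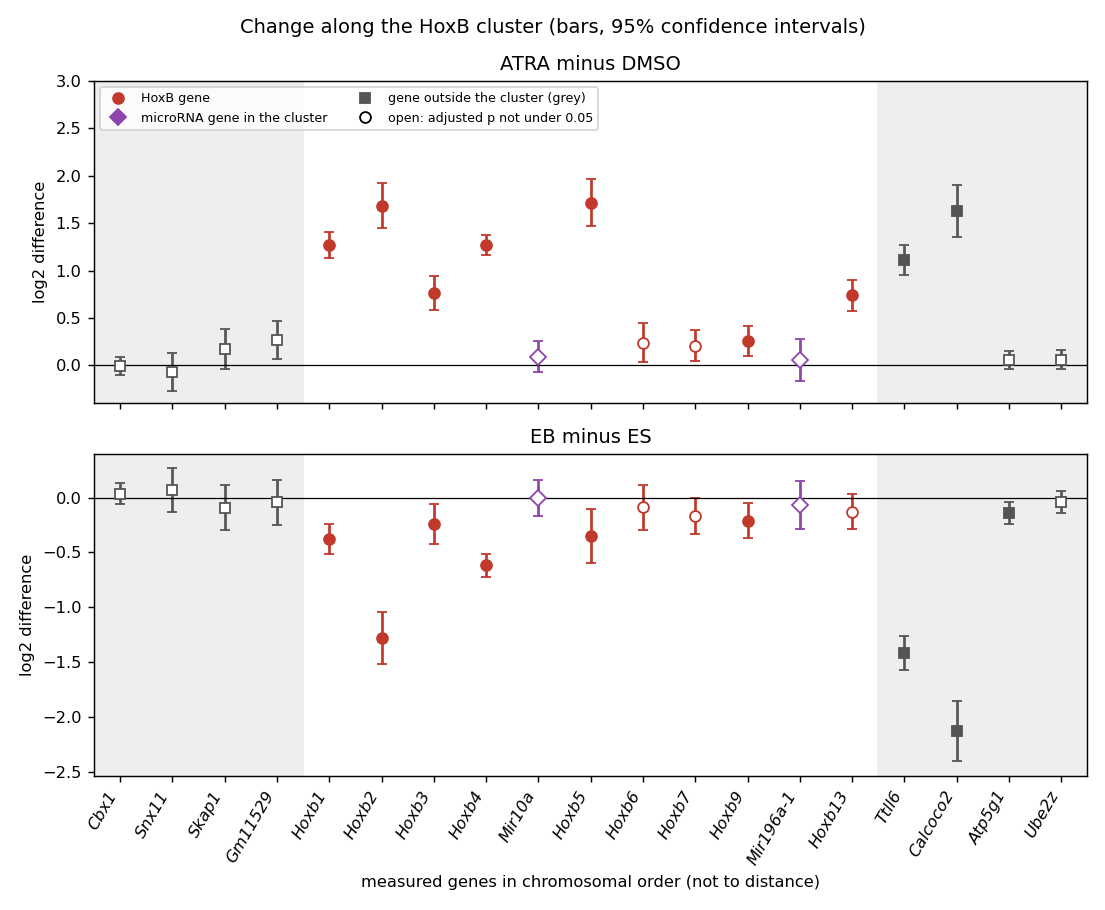
Log2 difference with its 95% confidence interval for each measured gene from Cbx1 to Ube2z in chromosomal order (not to distance), ATRA minus DMSO above and EB minus ES below. Filled symbols passed an adjusted p of 0.05. Hoxb1 to Hoxb5, Hoxb13, Ttll6 and Calcoco2 rise well clear of the other genes with ATRA.

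The genes around and inside the cluster were read in the same way. On the Hoxb1 side the 4 nearest measured genes, Gm11529, Skap1 (a T cell adaptor gene), Snx11 and Cbx1 (a heterochromatin protein gene), had differences of -0.07 to 0.26 between ATRA and DMSO. None passed the test in limma, with Gm11529 the 1 at an unadjusted p under 0.05 (adjusted p = 0.0863). On the other side 2 of the 4 nearest were called higher and 0 lower. Over all genes 6.26% were called higher and 13.3% in either direction. Ttll6, a tubulin polyglutamylase gene next to Hoxb13, was at 8.24, 8.13 and 8.14 with ATRA, against 7.14, 7.01 and 7.03 with DMSO. It rose by 1.11 ± 0.07 (limma, adjusted p = 8.61e-07), more than Hoxb13. Calcoco2, an autophagy receptor gene that follows it, was at 9.15, 9.40 and 9.30 with ATRA, against 7.62, 7.82 and 7.53 with DMSO. It rose by 1.63 ± 0.13 (limma, adjusted p = 3.47e-06), and its other probe set by 2.25 ± 0.12 (adjusted p = 2.48e-06 over all probe sets). Atp5g1 and Ube2z beyond them differed by 0.06 each and were not called.

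The cluster also holds microRNA genes, of which Mir10a, between Hoxb4 and Hoxb5, and Mir196a-1, between Hoxb9 and Hoxb13, had probe sets of their own. Their mature products (RefSeq, GRCm38.p6) are shown with the seed, bases 2 to 8, in capitals; miR-10a lies at chr11:96317186-96317208 and miR-196a at chr11:96265187-96265208, both on the plus strand, and the seeds differ.
miR-10a-5p: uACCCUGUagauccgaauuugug
miR-196a-5p: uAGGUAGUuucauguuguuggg
Mir10a was at 3.33, 3.41 and 3.58 in the ATRA arrays, against 3.39, 3.23 and 3.43 in the DMSO arrays, near the floor of the arrays, where the lowest value of any probe set was 2.30. Mir196a-1 was at 6.09, 6.24 and 6.33 with ATRA, against 6.14, 5.94 and 6.42 with DMSO. The groups overlapped for both, the differences were 0.09 ± 0.08 and 0.06 ± 0.10, and neither passed at an adjusted p (limma, 0.490 and 0.770) or at an unadjusted p of 0.05. Whether these probe sets read the mature microRNAs or their longer precursors is not given in the sources used here.

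EB against ES shares no array with ATRA against DMSO and compared untreated day 4 EBs with the undifferentiated cells of day 0. Of 7 ES cell markers, 1 was called higher in EBs, 1 lower and 5 neither. The log2 of their summed level was 15.26 to 15.35 in EBs and 15.26 to 15.31 in ES cells. All 9 HoxB genes had lower means in EBs. Of these, 6 were called lower, against 16.9% of all genes called lower and 34.7% in either direction, and the median change was -0.24, against 0.00 for all genes. Hoxb2 was at 7.87, 7.67 and 7.81 in EBs, against 9.15, 8.79 and 9.25 in ES cells. It fell by 1.28 on the log2 scale (2.43-fold, SE 0.11, limma, adjusted p = 1.41e-06), more than any other HoxB gene, with groups far apart. In 5 of the 9 the EB arrays lay wholly below the ES arrays, as they did in 20.1% of all genes. Hoxb4 was at 7.34, 7.20 and 7.29 in EBs, against 7.89, 7.86 and 7.93 in ES cells, a fall of 0.62 ± 0.05 (limma, adjusted p = 6.34e-07). Hoxb1 was at 7.93, 8.02 and 7.92 in EBs, against 8.28, 8.37 and 8.35 in ES cells. It fell by 0.38 ± 0.06 (limma, adjusted p = 4.52e-04), again without overlap of the arrays.

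The remaining falls were small and depended on single arrays. Hoxb5 was at 6.72, 6.94 and 6.91 in EBs, against 6.94, 7.43 and 7.26 in ES cells (-0.35 ± 0.11, limma, adjusted p = 0.0299). The widest spread of any HoxB gene within a group, an SD of 0.25, was that of Hoxb5 in ES cells, where replicate 1 lay low. Its call ended without ES replicate 2 (-0.24, adjusted p = 0.118), ES replicate 3 (-0.33, 0.0890) or EB replicate 1 (-0.28, 0.118). Hoxb3 (-0.24 ± 0.08, adjusted p = 0.0406) and Hoxb9 (-0.21 ± 0.07, adjusted p = 0.0403) had overlapping arrays. In limma, Hoxb3 lost its call without ES 2, ES 3, EB 1, EB 3, DMSO 3 or ATRA 2 (adjusted p from 0.0537 to 0.153), and Hoxb9 without ES 2, ES 3, EB 1, EB 3, DMSO 1, DMSO 2, ATRA 1 or ATRA 2 (0.0513 to 0.174). Without ES 2, ES 3 or EB 1 the number of HoxB genes called was 3 in place of 6. Hoxb6 (-0.09), Hoxb7 (-0.16) and Hoxb13 (-0.13) did not pass, though Hoxb7 was called without ES replicate 1 (adjusted p = 0.0478).

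Of the 4 nearest measured genes beyond Hoxb13, 3 were called lower in EBs. Over all genes 16.9% were called lower and 34.7% in either direction. Atp5g1 was called with a small difference (-0.14 ± 0.04, limma, adjusted p = 0.0274), and Ube2z was not called (-0.04 ± 0.05). On the Hoxb1 side 0 of 4 were called, with differences of -0.09 to 0.07. Next to Hoxb13, Ttll6 and Calcoco2 fell by more. The 95% confidence interval of Ttll6, -1.57 to -1.26, overlaps that of Hoxb2, -1.52 to -1.05. The difference between the changes of Ttll6 and Hoxb2 was not tested, so these genes are not ranked. Ttll6 was at 7.20, 7.35 and 7.39 in EBs, against 8.74, 8.60 and 8.85 in ES cells (-1.42 ± 0.07). Calcoco2 was at 7.80, 7.72 and 7.68 in EBs, against 10.18, 9.58 and 9.82 in ES cells (-2.13 ± 0.13), and its other probe set differed by -2.94 ± 0.12. Hoxb13 itself differed by -0.13 ± 0.07, with 7.06, 7.11 and 6.97 in EBs, against 7.19, 7.14 and 7.19 in ES cells. The arrays of the 2 groups did not overlap for Hoxb13, but the difference missed the threshold (limma, adjusted p = 0.228).

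**Figure D3:**
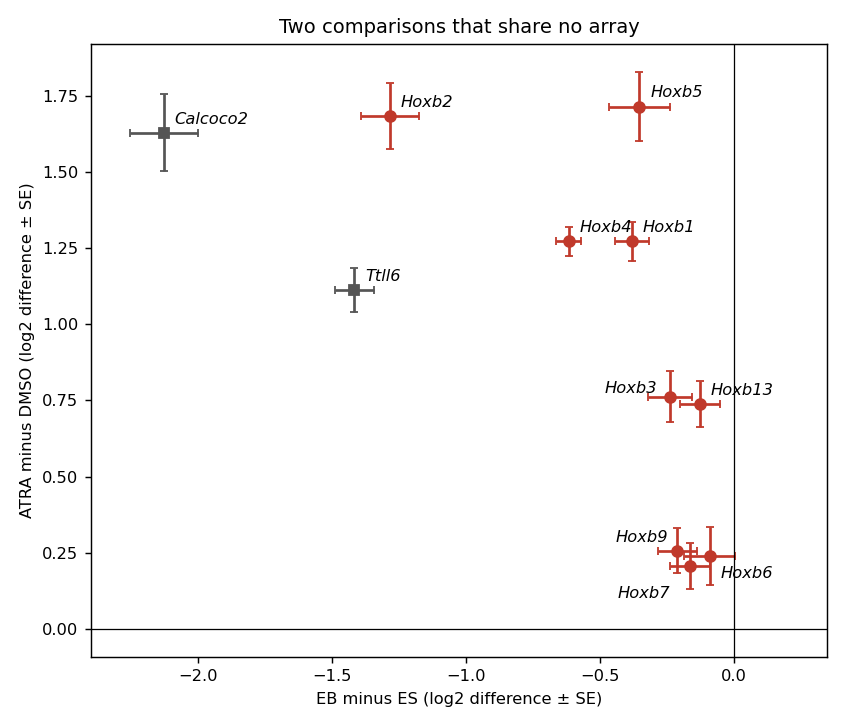
Log2 difference ± SE between EB and ES (horizontal) and between ATRA and DMSO (vertical) for the 9 measured HoxB genes (circles) and the neighbours Ttll6 and Calcoco2 (squares). Hoxb2 stands at -1.28 and 1.68, while Hoxb5 pairs a similar rise of 1.71 with a difference of only -0.35.

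Markers of fibroblasts, which express Hox genes, moved with the EB and ES difference. Over all genes 34.7% were called in EB against ES, 16.9% as lower, and 13.3% were called in ATRA against DMSO. Of 13 listed fibroblast markers, 11 were lower in EBs than in ES cells and 0 higher. The log2 of their summed level was 12.43 to 12.56 in EBs and 13.95 to 14.03 in ES cells. S100a4 and Fbln2 differed most, by -2.30 ± 0.07 and -2.06 ± 0.07. Their part in the HoxB falls was not tested. In ATRA against DMSO, where the HoxB genes rose, 1 of the 13 markers was higher and 4 were lower, and the summed level was 12.25 to 12.35 with ATRA and 12.44 to 12.46 with DMSO. Visceral endoderm markers were higher in EBs than in ES cells in 8 of 8 cases, with Ttr up by 3.19 ± 0.12, and 4 of the 8 were lower with ATRA than with DMSO. Of 5 neuron markers 3 were lower in EBs and 0 higher, with Stmn2 at -0.97 ± 0.08, and their summed level was 10.38 to 10.50 in EBs and 10.77 to 10.99 in ES cells. The part of either list was not tested. Array values have no true zero, so no marker can be called absent.

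Markers of other embryonic cell types moved with ATRA in part, where 13.3% of all genes were called in either direction. Of 7 neural progenitor markers, Pax6 alone rose (0.70 ± 0.09), and of 5 neuron markers Elavl3 rose (0.55 ± 0.04) and Map2 fell (-0.42 ± 0.09). Of 5 markers of paraxial mesoderm, Meox1 and Tcf15 rose, by 0.32 ± 0.07 and 0.27 ± 0.06, and of 4 of the tail bud Wnt3a rose by 0.46 ± 0.07. Of 7 ES cell markers, Zfp42 (-0.57 ± 0.06), Klf4 (-0.19 ± 0.05) and Sox2 fell. The summed level of the mesoderm markers was 11.62 to 11.63 with ATRA, 11.38 to 11.45 with DMSO and 11.46 to 11.56 in ES cells. Tcf15 had the highest values of these 5 markers, with means of 11.07 with ATRA, 10.80 with DMSO and 11.01 in ES cells. The summed level of the neural progenitor markers was 11.17 to 11.21 with ATRA and 11.06 with DMSO. The part of these cell types in the HoxB rises was not tested.

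DMSO against EB measured the solvent and any added time. No HoxB gene was called by limma, and 0 of 9 had an unadjusted p under 0.05, where 0.747% of all genes were called. The differences ran from -0.15 for Hoxb5 to 0.09 for Hoxb4, and the lowest adjusted p, 0.360, was that of Hoxb4. The confidence interval of Hoxb4 was -0.01 to 0.20, below its rise of 1.27 with ATRA, while that of Hoxb7, -0.11 to 0.22, includes its ATRA difference of 0.21.

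ATRA against EB and ATRA against ES share the ATRA arrays with the main comparison and are given beside it. Over EBs, 7 of 9 HoxB genes were called higher and 0 lower, where 7.79% of all genes were called higher and 18.4% in either direction. Hoxb2 and Hoxb5 stood 1.59 ± 0.11 and 1.56 ± 0.11 above EBs. Hoxb7 was called here (0.27 ± 0.08, limma, adjusted p = 0.0283) and Hoxb9 was not (0.15 ± 0.07, 0.209). The Hoxb7 call ended without EB replicate 1 (adjusted p = 0.106), EB replicate 3 (0.0508), ATRA replicate 1 (0.114) or ATRA replicate 2 (0.0643).

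Over ES cells, 6 of 9 were called higher with ATRA and 0 lower, against 17.5% of all genes called higher and 36.6% in either direction. Hoxb5 lay furthest above its ES level, by 1.21 ± 0.11, followed by Hoxb1 (0.82 ± 0.06), Hoxb4 (0.75 ± 0.05), Hoxb13 (0.57 ± 0.07) and Hoxb3 (0.53 ± 0.08). Hoxb2, which had the deepest fall in EBs, was only 0.31 ± 0.11 above ES cells (limma, adjusted p = 0.0420). That call ended without ES replicate 2, where the difference was 0.17 (adjusted p = 0.151), and without EB 3, DMSO 2, ATRA 1, ATRA 2 or ATRA 3 (0.0526 to 0.133). With array weights Hoxb2 was not called (0.15, adjusted p = 0.0946) and Hoxb9 was called lower with ATRA (-0.20, adjusted p = 0.00255). Ttll6 and Calcoco2 stood lower with ATRA than in ES cells, by -0.56 ± 0.07 and -0.58 ± 0.13 (limma, adjusted p = 5.44e-05 and 0.00298).

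Set in order from the lowest group to the highest, Hoxb1, Hoxb2, Hoxb5, Hoxb6 and Hoxb13 ran DMSO, EB, ES, ATRA, and Hoxb3, Hoxb4 and Hoxb7 ran EB, DMSO, ES, ATRA. Hoxb9 alone did not peak with ATRA: its mean was 8.27 ± 0.06 with ATRA and 8.34 ± 0.16 in ES cells (SD, n = 3 each). The lowest pair, DMSO and EB, overlapped for every gene but Hoxb4 and Hoxb9, which is 2 of 9 where 22.4% of all genes did not overlap, and no HoxB gene passed the test between them. ATRA lay above ES without overlap for Hoxb1 to Hoxb5 and Hoxb13, as did 22.7% of all genes, and overlapped for Hoxb6, Hoxb7 and Hoxb9. For Hoxb6 and Hoxb7 every pair of groups next to each other in this order overlapped, while their ATRA arrays lay above the DMSO arrays.

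Over the 12 arrays, which fall into the 4 groups and share their scaling, Hoxb1, Hoxb3, Hoxb4, Hoxb5 and Hoxb13 had closely similar profiles, with Pearson r of 0.92 to 0.98 in their 10 pairs. Over all 36 pairs of HoxB genes r ran from 0.48 to 0.98, lowest between Hoxb9 and Hoxb13. Hoxb2 was nearest to Hoxb4 within the cluster (0.92) and as near to Calcoco2 (0.92), while Hoxb13, which lies beside Ttll6 and Calcoco2, had r of only 0.48 and 0.55 with them. These coefficients describe the arrays and carry no test.

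The genes most like each of the 7 members called in ATRA against DMSO, by Pearson r over the 12 arrays, are given next as a description. Cebpb and Itgb2 did not pass the test in that comparison, and the others named rose. For Hoxb5 they were Cdk15 (r = 0.99), Nrip1, a nuclear receptor corepressor gene (0.98), Zmym3 (0.98), Plk3 (0.98) and Porcn, which encodes the enzyme that lipidates Wnt proteins (0.98). For Hoxb4 they were the MAP kinase phosphatase gene Dusp9 (0.995), Pecam1 (0.99) and Igsf21 (0.99). Hoxb2 was most like the lysine methyltransferase gene Smyd2 (0.99), Prss50 (0.99) and the ETS-type repressor gene Erf (0.99), and Hoxb1 most like Afap1l1 (0.99), Cdk15 (0.99) and Tcp11 (0.98). Hoxb3 was nearest to Gsk3a (0.97), Afap1l1 (0.97) and Hoxb1 (0.97), Hoxb13 to Traf3ip2 (0.98), Enpp4 (0.97) and Fignl2 (0.96), and Hoxb9 to Cebpb, Nppc and Itgb2 (0.95, 0.95 and 0.94).

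The paralogues in the HoxA, HoxC and HoxD clusters place these values. Of 20 measured, 6 were higher and 1 lower with ATRA than with DMSO, with a median change of 0.15. Over all genes 6.26% were called higher and 13.3% in either direction. All 6 higher paralogues were in HoxA. In paralogue groups 1 to 5, 5 of 5 HoxB genes and 4 of 4 HoxA genes rose, by 0.76 to 1.71 and by 0.63 to 2.27, while 0 of 2 HoxC and 0 of 3 HoxD genes were called by limma, with differences of 0.13 to 0.15 and 0.05 to 0.22. At an unadjusted p of 0.05 those counts are 0 and 2. Which of the pair was higher varied by group: Hoxb2 rose by 1.68 and Hoxa2 by 0.63, whereas Hoxb5 rose by 1.71 and Hoxa5 by 2.27. In groups 6 to 9, Hoxa6 (0.39 ± 0.05) and Hoxa7 (0.49 ± 0.06) rose and Hoxa9 (0.20 ± 0.08) did not pass, beside Hoxb9 in HoxB. In group 13, Hoxb13 was the only gene that rose, Hoxc13 fell (-0.25 ± 0.06), and Hoxa13 and Hoxd13 differed by 0.05 and 0.04. Whether the clusters differ was not tested.

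**Figure D4:**
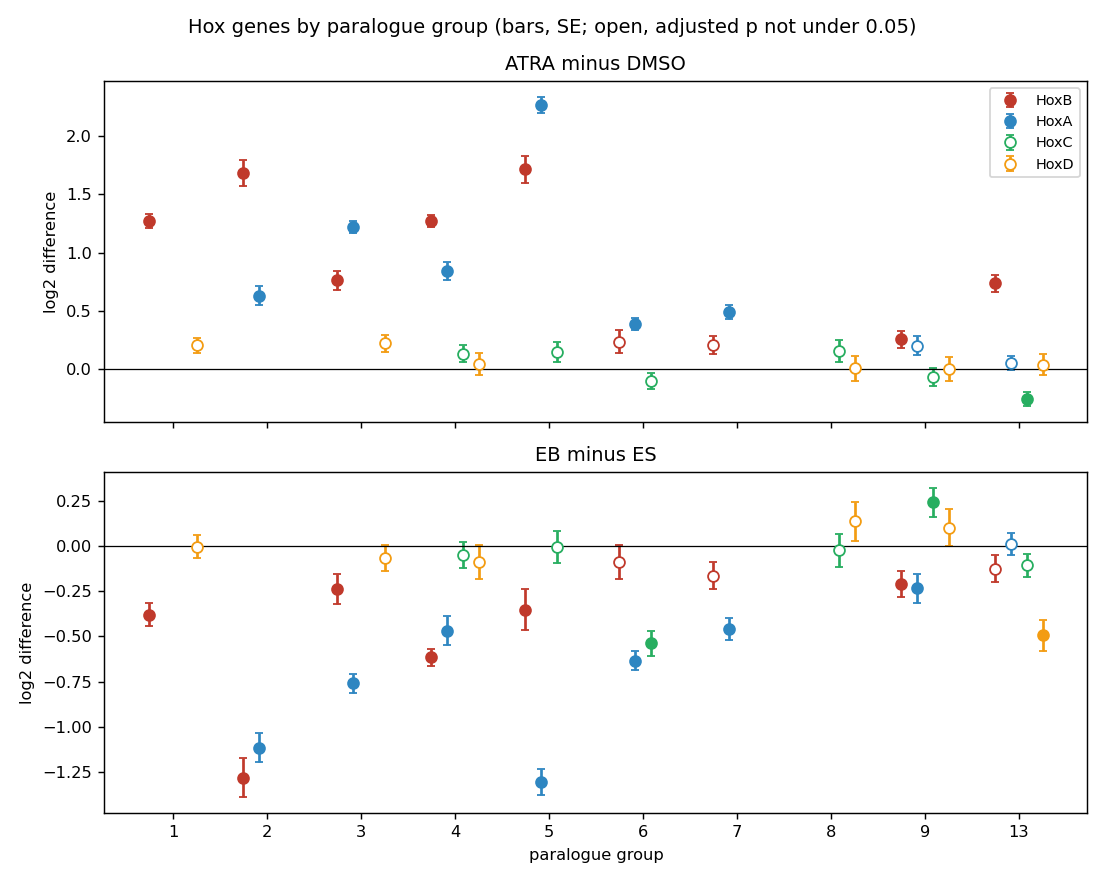
Log2 difference ± SE of the measured Hox genes by paralogue group, in the order HoxB, HoxA, HoxC, HoxD within each group, ATRA minus DMSO above and EB minus ES below. Filled symbols passed an adjusted p of 0.05. The HoxB and HoxA genes of groups 1 to 5 lie at 0.63 or more with ATRA and at -0.24 or less in EBs.

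Between EBs and ES cells, 4 of 4 HoxA genes of groups 1 to 5 were also lower, with Hoxa5 at -1.31 ± 0.07 and Hoxa2 at -1.12 ± 0.08. Of the 5 HoxC and HoxD genes in these groups 0 were called by limma and 0 had an unadjusted p under 0.05. Among all 20 paralogues, 1 was higher and 9 lower, where 16.9% of all genes were called lower and 34.7% in either direction.

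The known regulators and cofactors of HoxB genes changed in part. Of 23 measured, 7 were higher and 1 lower with ATRA than with DMSO (median 0.11). Over all genes 6.26% were called higher and 13.3% in either direction. Rarb rose most, and the other retinoic acid receptor genes Rarg and Rara rose by 0.56 ± 0.06 and 0.45 ± 0.05, while none of the retinoid X receptor genes was called. Cdx1, a caudal-type factor that binds Hox regulatory DNA, rose by 1.31 ± 0.09, whereas Cdx2 and Cdx4 differed by 0.03 and 0.11. Of the genes for proteins that bind DNA together with Hox proteins, Pbx2 (0.45 ± 0.05), Pbx4 (0.24 ± 0.06) and Meis1 (0.22 ± 0.05) rose. Sox2 fell by 0.20 ± 0.06. The genes of the factors searched for in the promoters, Nfya, Usf1 and Usf2, differed by -0.03, 0.01 and 0.02 and were not called.

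Of 16 chromatin regulators of Hox clusters, 1 rose and 1 fell with ATRA (median -0.03), where 13.3% of all genes were called in either direction. Kdm6b, which encodes a demethylase of the Polycomb mark, rose by 0.17 ± 0.05, and Cbx7, a Polycomb subunit gene, fell by 0.37 ± 0.06. Between EBs and ES cells 9 of the 16 were higher and 0 lower, among them Cbx7 (0.65 ± 0.06) and Ezh1 (0.56 ± 0.06). Over all genes 34.7% were called in that comparison, in either direction. Genes of hindbrain pattern did not rise beside Hoxb1. Of 7 measured, 0 were called higher with ATRA by limma and 3 lower, and the same 3 were those with an unadjusted p under 0.05. Otx2, a forebrain and midbrain gene, fell by 2.17 ± 0.06, Gbx2, of the anterior hindbrain, by 0.76 ± 0.05, and Epha4 by 0.41 ± 0.05. Egr2, the rhombomere 3 and 5 gene that acts on Hoxb2, differed by 0.13 ± 0.07 (limma, adjusted p = 0.268).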

How the data were processed

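Total RNA (RNeasy) was turned into biotinylated cDNA with Ambion's WT Expression kit and hybridised to Affymetrix arrays, per the labels' protocols. The authors deposited 1 table of log2 values for 35556 probe sets; that scale was read off the range of 2.30 to 14.7, and how they were normalized is not given in the sources used here. Of the probe sets, 21789 had 1 symbol, 1621 several and 12146 were unlisted in the platform annotation; where a gene had several probe sets of its own, the one of highest mean was used, with no filter on low values. The gene IDs of 21698 were found in RefSeq (GRCm38.p6), used for symbols and gene order. Differences were fitted in limma 3.58.1 (R 4.3.3) with 1 mean per group over 12 arrays and two-sided moderated tests (residual df 8, prior df 3.93); the code was tested on simulated data. With 3 arrays a group, their number limits the precision, and the labels do not say whether the biological replicates were separate cultures, so p-values measure the spread between these samples. The members, gene lists and tests were chosen with earlier results of these data known. Named genes were the members, the 4 nearest measured genes on each side, the 3 (5 for Hoxb5) most similar profiles per called member, and list genes that passed the test or bounded a range. Sequences are from RefSeq tables.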

Additional observations from a re-analysis of the deposited data

Results flagged for a closer look

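The probe set that lists both Hoxb8 and Hoxb7 lay outside the comparisons above, because its signal cannot be given to 1 gene, and it is described here because its values differed between ATRA and the solvent control. Its mean was 6.60 ± 0.05 with ATRA and 6.25 ± 0.07 with DMSO (SD, n = 3), a difference of 0.34 ± 0.05 in the limma fit to all probe sets, for which no test is given since the probe set was chosen by it. It was lower in EBs than in ES cells by -0.30 ± 0.05 (limma, adjusted p = 0.00164).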

How the results depend on the processing

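Across 22 alternatives, no called change of a HoxB gene turned its direction. Of 950 values for single genes, 889 kept their side of the threshold, 52 lost a call and 9 gained one. Many of these values could hardly change, so the share does not measure robustness. With 1 probe set per HoxB gene, averaging probe sets left each difference as it was. Leaving out an array of a group not compared also left the difference as it was, though its p could change. For DMSO against EB, 0 HoxB genes were called in every alternative. The rises of Hoxb1 to Hoxb5 and Hoxb13 with ATRA over DMSO, and the falls of Hoxb1, Hoxb2 and Hoxb4 in EBs, were called in each alternative in which the gene was tested. A filter at the median gene mean kept Hoxb2 alone, so 1 HoxB gene was tested and called in ATRA against DMSO, EB against ES, ATRA against EB and ATRA against ES. For EB against ES the count of 6 was 3 with all probe sets and 3 with only the 2 groups compared, 3 to 7 with each array left out in turn, and 8 with array weights, which added Hoxb6 and Hoxb7. For ATRA against DMSO the count of 7 was 9 with array weights and 8 with only the 2 groups. With the replicate number as a block the counts were 6 for ATRA against DMSO, where Hoxb9 ended at an adjusted p of 0.05, 4 for EB against ES, 0 for DMSO against EB, 7 for ATRA against EB and 6 for ATRA against ES. The labels do not say whether the numbers pair the samples. Same-numbered arrays of different groups had deviations correlated at -0.13 to 0.51, highest for ES 2 with EB 2, and other-numbered arrays at -0.51 to 0.31. An array was closest to its own number in 12 of 36 cases. Such correlations cannot exclude a pairing. Without ES 2 and EB 2 together, arrays of narrow spread (chosen after seeing the data), the counts were 7, 4, 0, 7 and 5 in the same order. Over all genes, array weights called 4311 in place of 2655 for ATRA against DMSO and 11052 in place of 7306 for ATRA against ES. For DMSO against EB, 149 calls became 253 with quantile normalization, 761 with the filter, 476 with all probe sets, 626 with an intensity trend, 62 with the block, 25 with only the 2 groups, 27 without ES 2 and EB 2, and 0 to 237 with an array left out. The cause was not tested. Most HoxB values lie near the array median or below it, where an array may understate a change.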
